A study of Mus musculus with 20 samples.

Results

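Transcripts of the proteasome were followed through 20 single cells of the mouse inner cell mass, as 47 genes of the 18193 with a probe set of their own on the array. The members were all genes whose symbol is Psm followed by a letter from a to g and a number, counting only probe sets annotated with 1 gene. They had 100 of the 34945 probe sets of this kind, and each gene was read from its brightest one by the mean over cells. The symbol decided membership, and no measured value was used. Psme2, an activator subunit, was not analysed here because its probe set also names another gene.

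The cells came from C57BL/6 blastocysts at embryonic day 3.5 whose inner cell masses had been separated with trypsin-EDTA. The series design gives 55 cells taken at random, of which 50 were kept as positive for Oct4 and negative for Cdx2, a trophectoderm gene, by PCR on the amplified cDNA. The 20 arrays, each with the PCR-amplified cDNA of 1 cell, form 1 group with no treatment and no comparison between groups. The labels tie no cell to an embryo, so p-values measure only the spread between these samples, which includes the amplification of each cell.

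The proteasome degrades proteins that carry ubiquitin chains. Its 20S core is a barrel of alpha rings, which gate the entrance, and beta rings, of which Psmb5, Psmb6 and Psmb7 encode the cutting subunits. The 19S regulatory particle caps the core, binds ubiquitin chains, removes them and unfolds the substrate with a ring of ATPases. In cells exposed to interferon, and in leukocytes without it, Psmb8, Psmb9 and Psmb10 replace the cutting subunits to form the immunoproteasome, which makes peptides for MHC class I.

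Levels are log2 of the normalised intensity plus a pseudocount of 8.48, so a step of 1 is a 2-fold change well above the pseudocount, and the lowest level possible is 3.25. The floor of an array is the 95th percentile of 150 probe sets for genes of unrelated tissues, and it lay between 6.57 and 7.31. Levels are compared between cells, not between genes, since probe sets differ in their response. The deposited median intensity was 14.97 in cell 19 and between 25.6 and 30.1 in the other cells. Each cell goes by its replicate number.

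The constitutive proteasome was detected in every cell. Above the floor in all 20 cells were 36 of the 47 members, against 16.8% of all genes. They comprised all 14 constitutive core genes, 16 of the 17 genes for 19S subunits, 3 of the 4 core assembly chaperones, 1 of 3 19S assembly chaperones, 1 of 3 activators, and Psmb8. Psmb11, the thymus-specific beta subunit, was the only member above the floor in no cell, which held for 34.6% of all genes. Between 41 and 44 members were above the floor in a cell.

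**Figure D1:**
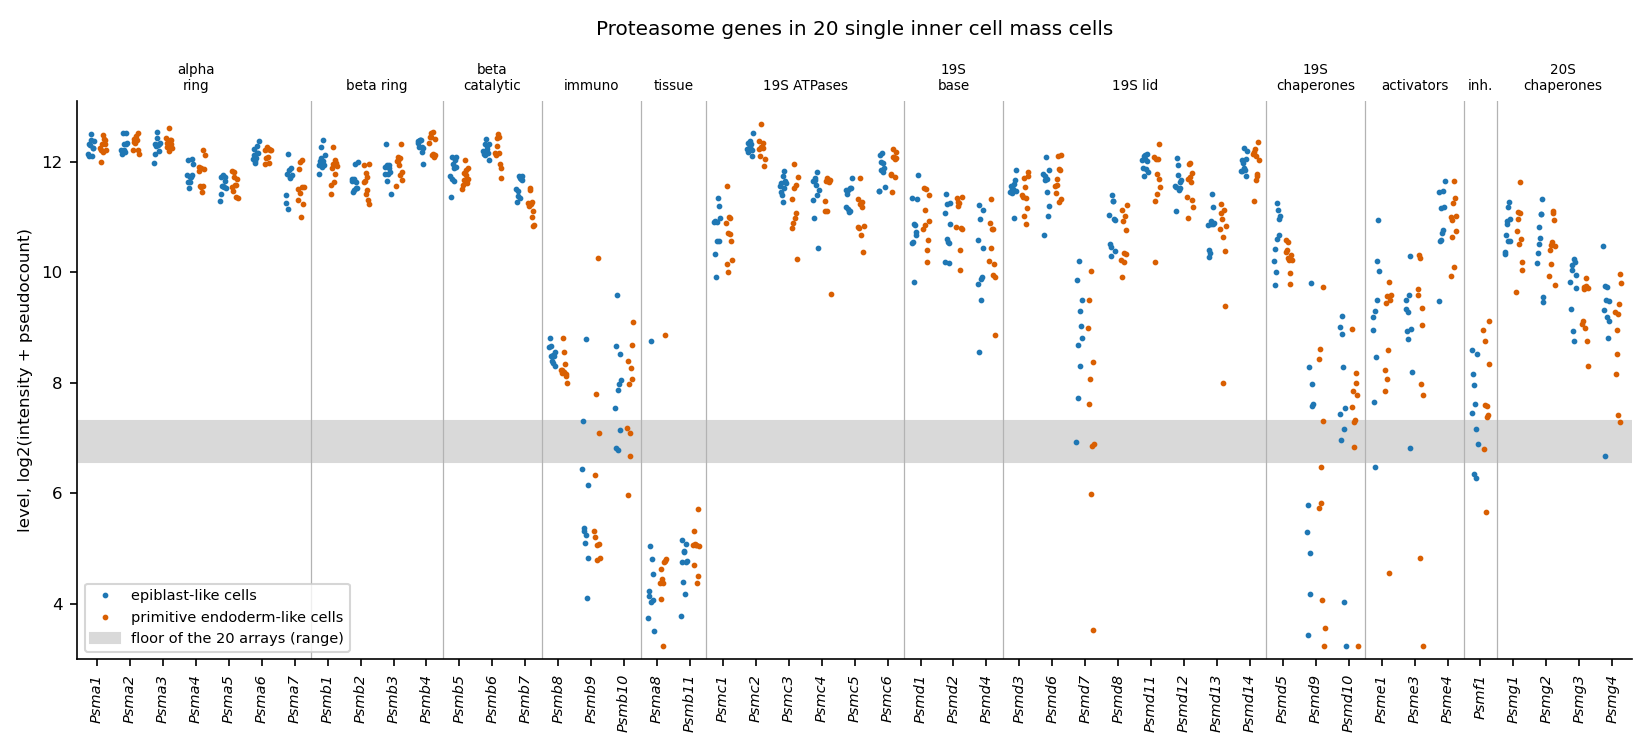
Level of each of the 47 proteasome genes (log2 of intensity plus pseudocount, vertical axis) in each of 20 cells, by role. Points on the left of each gene are the 10 epiblast-like cells, points on the right the 10 primitive endoderm-like cells, and the grey band is the range of the floor, 6.57 to 7.31. The constitutive core genes lie in narrow columns far above the floor, and Psmb9, Psmd9 and Psma8 cross it.

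The alpha ring is encoded by 7 genes, Psma1 to Psma7, most of them even between cells. Their SD between cells was 0.12 to 0.32 on the log2 scale (n = 20), with a median of 0.14. Psma6 was the evenest by SD at 12.15 ± 0.12, with a lowest value of 11.97 in cell 4, a median of 12.17 and a highest of 12.39 in cell 19. Psma5 ranged from 11.30 in cell 1 over a median of 11.57 to 11.84 in cell 3. Psma7 was the most variable of the ring, from 11.01 in cell 10 over a median of 11.63 to 12.15 in cell 12. No cell was far below the rest for any of these genes.

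Of the beta ring, Psmb1, Psmb2, Psmb3 and Psmb4 encode subunits without a cutting site. They had SDs of 0.16 to 0.24. Psmb5, the chymotrypsin-like subunit, was at 11.79 ± 0.20, with a lowest value of 11.36, a median of 11.78 and a highest of 12.09. Psmb6, the caspase-like subunit, was at 12.20 ± 0.19, with a lowest of 11.72, a median of 12.18 and a highest of 12.50. Psmb7, the trypsin-like subunit, was at 11.37 ± 0.28, with a lowest of 10.84, a median of 11.37 and a highest of 11.75. All 3 cutting subunits were thus far above the floor in every cell, and the full range of any constitutive core gene over the 20 cells was 0.39 to 1.14. No value of these 14 genes lay 1 or more below its gene's median, in 280 values. The same count was not made for all genes. At a mean of at least 11, the median SD over 849 genes tested was 0.31.

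The 6 ATPases of the 19S base, Psmc1 to Psmc6, were above the floor in all cells with SDs of 0.16 to 0.53. Psmc2 was the evenest at 12.27 ± 0.16. Psmc4 was at 11.36 ± 0.53, and 2 cells stood below the others, cell 20 at 9.61 and cell 18 at 10.45 against a median of 11.61. The other probe set of Psmc4 showed the same cells lowest, at 8.68 and 9.60, and followed the first over the cells with r = 0.95 (n = 20). Without cell 20 the SD of Psmc4 was 0.34.

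The non-ATPase genes of the base are Psmd1 and Psmd2, large scaffold subunits where ubiquitin shuttles dock, and Psmd4, a receptor for ubiquitin chains. Psmd1 was at 10.89 ± 0.49 and Psmd2 at 10.86 ± 0.44. Psmd4 was more variable, at 10.27 ± 0.75, with its lowest values of 8.56 in cell 9 and 8.87 in cell 20. All 3 stayed above the floor in every cell.

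The lid, which holds the deubiquitinase Psmd14 and its partner Psmd7, had the largest single-cell departures of the 19S genes. Psmd14 was even, at 11.96 ± 0.25. Psmd7 was above the floor in 17 cells, with a lowest value of 3.52 in cell 17, a median of 8.53 and a highest of 10.22 in cell 12. The enzyme and its partner therefore differed in how their probe sets behaved over the same cells. Psmd7 was above the floor in 10 cells when the floor was set at the 99th percentile.

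Psmd11, a scaffold subunit of the lid, was at 11.82 ± 0.46, with a lowest value of 10.18 in cell 4, a median of 11.95 and a highest of 12.33 in cell 17. The low value in cell 4 was also seen with another probe set of the gene, where it was the lowest cell at 8.88, and with a further one at 7.66, where cell 13 was lower. Without cell 4 the SD of Psmd11 was 0.27. Psmd13, another scaffold subunit of the lid, was at 10.63 ± 0.76, with 7.99 in cell 10 and 9.39 in cell 17 against a median of 10.87. Its other detected probe set gave 8.10 and 9.47 in these cells (r = 0.996 over the 20 cells), and without cell 10 the SD was 0.46. The low values of Psmc4, Psmd11 and Psmd13 thus fell in different cells, and each was seen by more than 1 probe set of the gene, which share the cDNA of the cell and may share probes. Psmd3, Psmd6, Psmd8 and Psmd12, the other subunits of the lid, had SDs of 0.27 to 0.45.

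**Figure D2:**
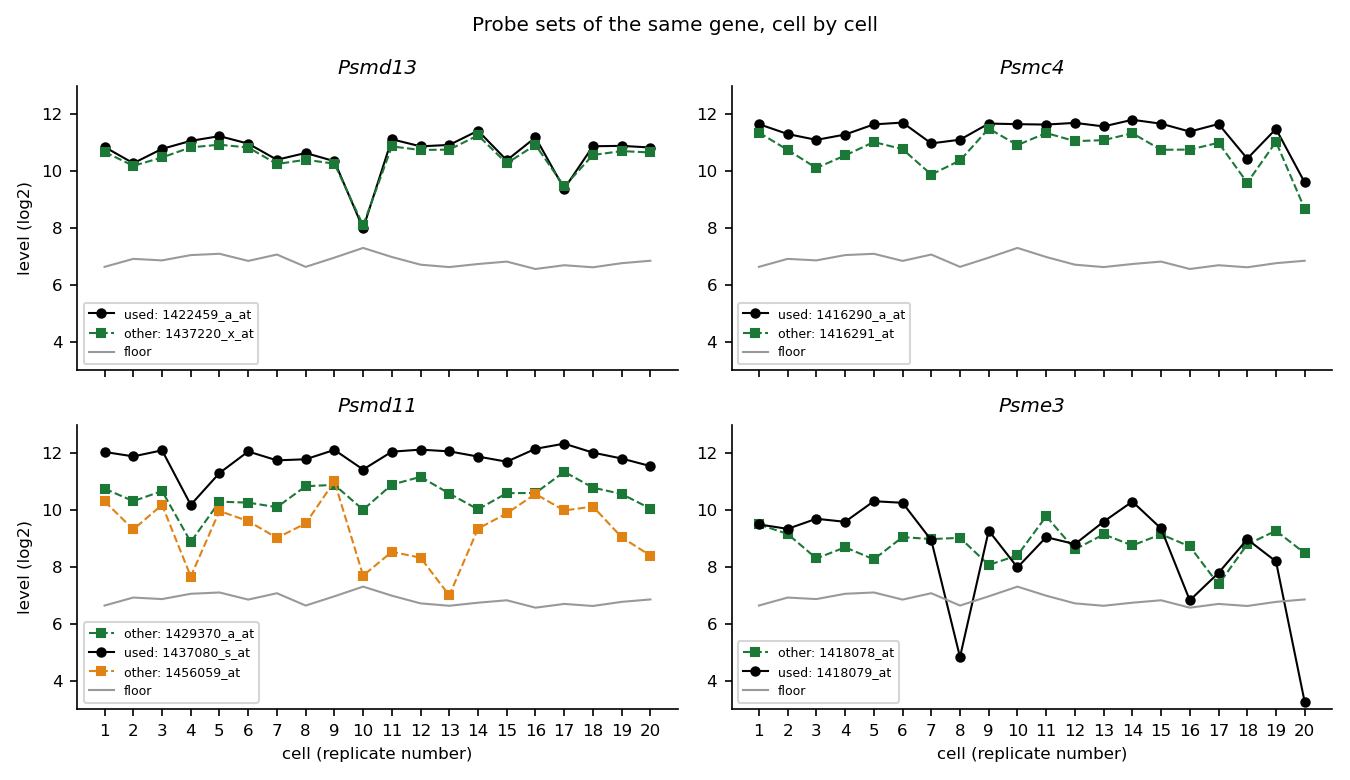
Level (log2, vertical axis) in each of the 20 cells (horizontal axis, replicate number) for the probe sets of Psmd13, Psmc4, Psmd11 and Psme3 that were above the floor in at least 18 cells. Black circles are the probe set used, coloured squares the others, and the grey line is the floor. For Psmd13 the probe sets coincide with a low cell 10, for Psmc4 they share a low cell 20 and for Psmd11 a low cell 4, while for Psme3 the low cells 8 and 20 appear with 1 probe set only.

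The spread of each gene was tested against the trend of variance on mean level over the 10198 genes that 3 or more cells had above the floor, with limma's moderated variances. Of these, 45 were members (56.1% of all genes were tested), and Psma8 and Psmb11 were not tested. In the upper tail, 0 members and 0 of all genes passed an adjusted p of 0.05 (0% of genes). Of the lineage markers tested, 0 of 12 epiblast and 0 of 14 primitive endoderm genes passed there. A missing call in this tail therefore does not show that a gene is even between cells. At an unadjusted p of 0.05, the upper tail held 0 members and 20 of all genes, and the smallest unadjusted p of a member was 0.143, for Psmd9. The lower tail was passed by 1 member, Psmb8, against 4.53% of genes. The variance of 14 members was below the trend, against 28.7% of genes, a share near that background.

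Within the complex the core and the cap differed in how many genes lay below the trend. Of the 14 constitutive core genes 9 were below it, including 6 of 7 in the alpha ring, against 2 of the 17 genes for 19S subunits. Over all genes tested the share below it was 28.7%, and 22.6% at a mean of at least 11. Neither count rests on a call, since the smallest adjusted lower-tail p among these 31 genes in limma's test was 0.589, for Psma5. The median SD was 0.20 for the core genes and 0.44 for the 19S genes. Spread falls with level, and with genes of a mean of at least 11 alone the median SD was 0.33 for 10 genes of the 19S particle, 0.23 for 24 members and 0.31 for all 849 genes. The counts below the trend depended on which genes set it. With genes above the floor in all cells, 12 of 14 core genes and 8 of 16 19S genes lay below it, against 37.7% of the genes in that fit.

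**Figure D3:**
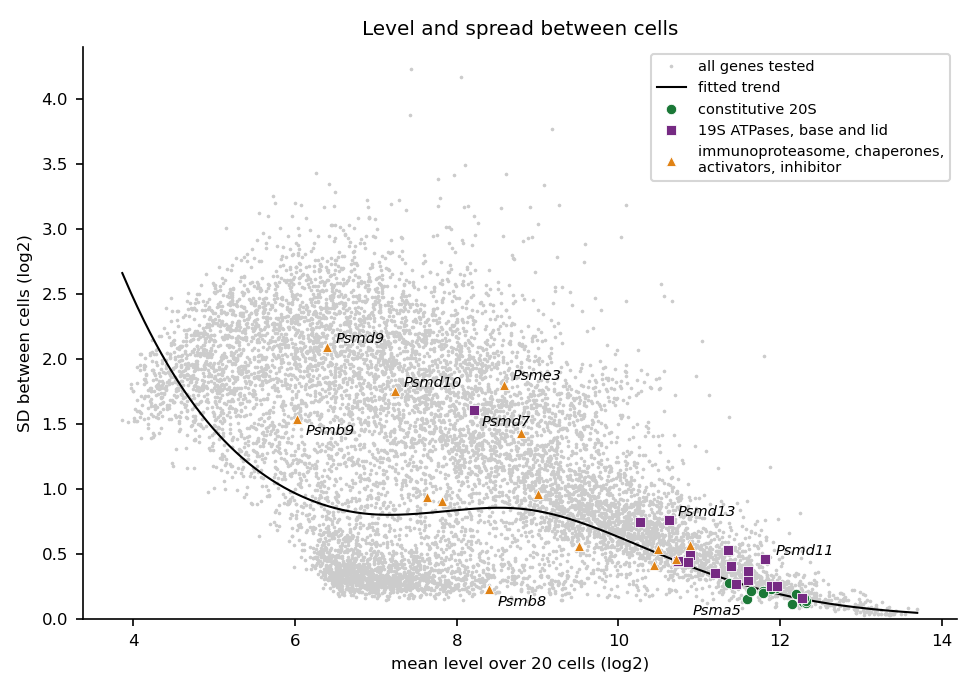
Mean level over 20 cells (log2, horizontal axis) against the SD between cells (log2, vertical axis). Grey points are the 10198 genes tested, the line is the fitted trend, and coloured symbols are the 45 members tested. The core genes (green circles) lie near or below the line, and Psmb8 lies well below it. Most 19S genes (purple squares) lie above the line, as do 7276 of the 10198 genes tested.

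By the ratio of variance to trend, the 5 least variable members were Psmb8, Psma5, Psma6, Psmg3 and Psmd5. The 5 most variable were Psmd9, Psmd10, Psmd11, Psme3 and Psmd7. The median ratio was 1.21 over the members and 1.95 over all genes tested.

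The immunoproteasome genes behaved differently from one another. Psmb8, which encodes the inducible counterpart of the chymotrypsin-like subunit, was above the floor in all 20 cells at 8.40 ± 0.23, with a lowest value of 8.0 in cell 20, a median of 8.38 and a highest of 8.82 in cell 6. Its variance was 0.0728 of the trend (limma, adjusted lower-tail p = 0.0127). Of 1453 genes tested with a mean between 8 and 9, 1.93% had a smaller SD, and the median SD was 1.35. The call was lost when only genes above the floor in all cells set the trend (adjusted p = 0.524).

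The evenness of Psmb8 was found with both of its probe sets, but they did not rank the cells alike. The other probe set was at 7.34 ± 0.22 and above the floor in 19 cells, with r = -0.35 to the first over the 20 cells. The brighter one carries the suffix by which Affymetrix marks probe sets with probes that match other transcripts. Low and even values were also given by marker genes of other cell types, named here after their values were seen. Cdx2, for whose absence the cells had been screened, was above the floor in 19 cells at 7.42 ± 0.35. H2-Aa, an MHC class II gene of antigen-presenting cells, was above the floor in 19 cells at 7.46 ± 0.24, with an adjusted lower-tail p of 0.0220 in limma's test. Whether the signal of Psmb8 comes from its transcript was not tested. At a floor set at the 99th percentile, Psmb8 was above it in 14 cells.

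Psmb9, the inducible counterpart of the caspase-like subunit, was above the floor in 5 cells only. They were cell 11 at 10.26, cell 14 at 8.79, cell 6 at 7.80, cell 2 at 7.30 and cell 15 at 7.09. Over all cells the lowest value was 4.12 and the median 5.32. The other 15 cells were below the floor, so their order has no meaning, and at the 99th percentile floor 2 cells were above it. The 5 cells were 2 epiblast-like and 3 primitive endoderm-like cells, as defined further on.

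Psmb10, the inducible counterpart of the trypsin-like subunit, was above the floor in 17 cells at 7.82 ± 0.91, with a lowest value of 5.97 in cell 4, a median of 7.98 and a highest of 9.60 in cell 9. At the 99th percentile floor this fell to 8 cells. Psmb9 and Psmb10 were both above the floor in 4 cells, Psmb9 alone in 1, Psmb10 alone in 13 and neither in 2. The cell highest for one was not the cell highest for the other.

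Genes of the same antigen-processing route were detected in part. Of 15 listed genes 14 were measured, 7 were tested and 7 were above the floor in no cell, against 34.6% of all genes, among them Tap1 and Tap2, the subunits of the peptide transporter, and Nlrc5, an activator of MHC class I genes. Ifngr1, a chain of the interferon gamma receptor, was the only one above the floor in all cells, at 8.03 ± 0.39. Ifngr2, the other chain of this receptor, was above the floor in no cell. Of the other tested genes with the largest means, H2-K1, an MHC class I heavy chain, was above it in 19 cells and Tapbp, the chaperone tapasin, in 7. With the smallest means, B2m, the light chain of MHC class I, was above it in 4 cells, H2-D1, another heavy chain, in 8, and Irf1, an interferon-regulated transcription factor, in 3. In limma's variance test 0 of the 7 passed in either tail. At an unadjusted p of 0.05 the upper tail held 0 and the lower tail 1, Ifngr1, with an adjusted p of 0.194.

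Leukocytes express the immunoproteasome without interferon. Of 9 measured leukocyte genes, 5 were above the floor in no cell (Ptprc, Cd74, Lyz2, Laptm5 and Tyrobp), against 34.6% of all genes. None was above it in all cells, but Csf1r, a growth factor receptor of macrophages, at 7.60 ± 0.34, and H2-Aa were above it in 19 cells each, Cd3e in 3 and Fcer1g in 2. The mean level of the list per cell was 5.38 to 5.98 in epiblast-like cells and 5.40 to 6.04 in primitive endoderm-like cells.

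**Figure D4:**
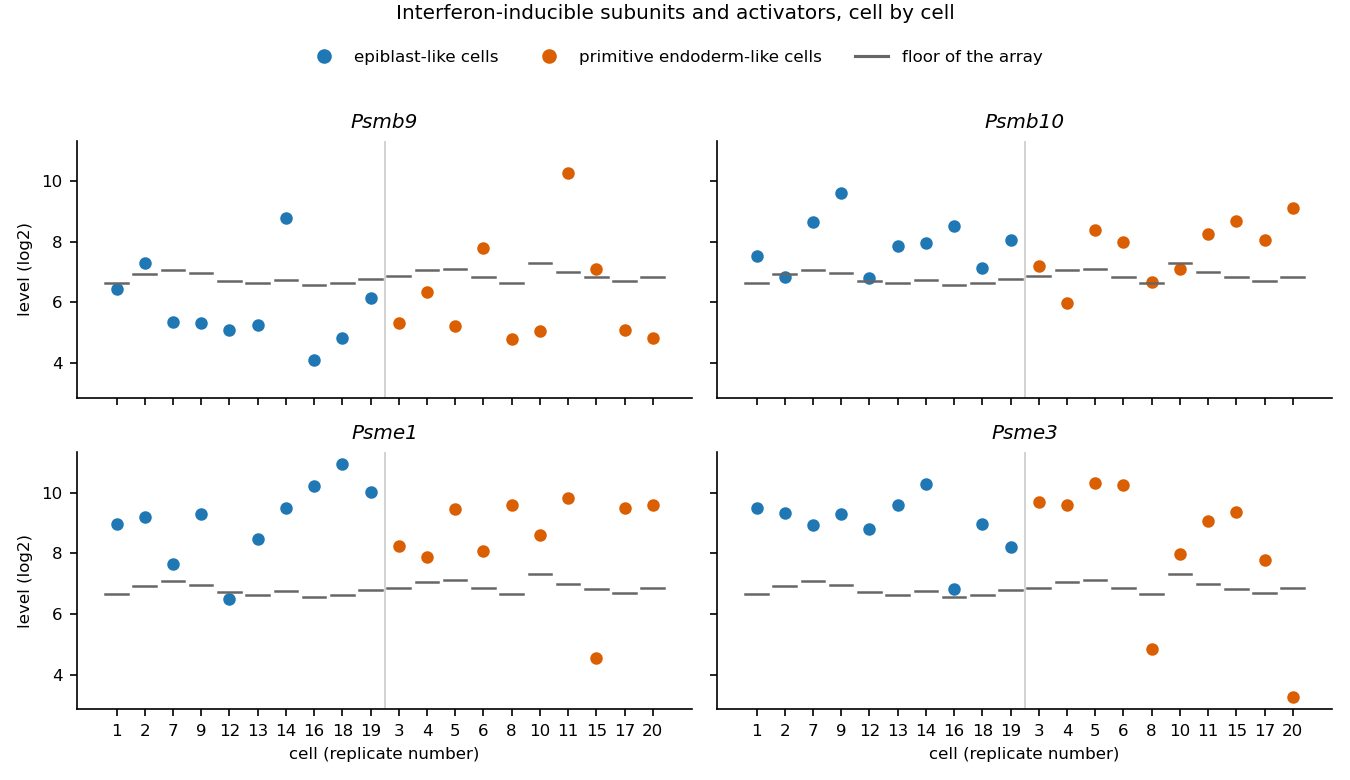
Level (log2, vertical axis) of Psmb9, Psmb10, Psme1 and Psme3 in each cell (horizontal axis, replicate number), with the 10 epiblast-like cells on the left and the 10 primitive endoderm-like cells on the right. The short grey bars are each array's floor. Psmb9 rises above the floor in 5 cells and most clearly in cell 11, while Psme1 falls below it in cells 12 and 15 and Psme3 in cells 8 and 20.

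Psmb9 lies head to head with Tap1 on mouse chromosome 17, and the 2 genes are known to share the promoter between their starts. The Tap1 gene was above the floor in 0 of 20 cells by each of its 4 probe sets, also in the 5 cells with Psmb9. The shared stretch is printed because only 1 of the genes it serves was detected. It spans chr17:34187331-34187555 (RefSeq, GRCm38.p6), is given on the minus strand, the strand of Psmb9, and has 225 bases, with the single CCAAT box, found on the opposite strand at bases 218 to 222, in capitals.
Psmb9-Tap1 region: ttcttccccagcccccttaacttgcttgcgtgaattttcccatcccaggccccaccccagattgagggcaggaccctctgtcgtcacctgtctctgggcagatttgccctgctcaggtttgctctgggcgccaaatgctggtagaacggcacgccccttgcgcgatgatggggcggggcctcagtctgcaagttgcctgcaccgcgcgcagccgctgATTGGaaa

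The tissue-specific core genes were at or below the floor in nearly all cells. Psma8, the alpha subunit of the testis, had a lowest value of 3.25, a median of 4.42 and a highest of 8.86, and was above the floor in 2 cells, cell 17 at 8.86 and cell 13 at 8.75. Psmb11, the beta subunit of the thymic cortex, had a lowest value of 3.77, a median of 4.95 and a highest of 5.72. Each was measured by 1 probe set.

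The activators open the core without the 19S particle. Psme1, a subunit of the interferon-inducible PA28, was above the floor in 18 cells at 8.80 ± 1.43, with a lowest value of 4.55 in cell 15, a median of 9.24 and a highest of 10.95 in cell 18. Psme3, the nuclear PA28 gamma, was above the floor in 18 cells at 8.59 ± 1.80, with a lowest of 3.25 in cell 20, a median of 9.16 and a highest of 10.31 in cell 5. Psme4, the nuclear activator PA200, was above it in all cells at 10.89 ± 0.57, with a lowest of 9.49 in cell 2, a median of 10.98 and a highest of 11.66 in cell 19. Psme1 and Psme3 were thus high in most cells and low in a few, and the low cells differed between them. The low cells of Psme3 were seen with 1 probe set only, since the other detected one gave 9.02 in cell 8 and 8.48 in cell 20 and was above the floor in all cells at 8.77 ± 0.54. Psmf1, which encodes the inhibitor PI31, was above the floor in 16 cells at 7.63 ± 0.94, and in 8 cells at the 99th percentile floor.

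The assembly chaperones are not part of the finished particle. Psmg1 and Psmg2, a pair that builds the alpha ring, were above the floor in all cells at 10.71 ± 0.46 and 10.49 ± 0.54. Psmg3, of the second such pair, ranged from 8.30 in cell 20 over a median of 9.72 to 10.24 in cell 13. Its partner Psmg4 was above the floor in 19 cells at 9.01 ± 0.96. Core assembly genes were therefore detected in nearly all cells.

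The chaperones of the 19S base were less uniform. Psmd5 was above the floor in all cells, from 9.78 in cell 2 over a median of 10.39 to 11.26 in cell 13. Psmd10, also called gankyrin, was above it in 15 cells, from 3.25 in cells 19 and 20 over a median of 7.55 to 9.21 in cell 9, and in 5 cells at the 99th percentile floor. Psmd9 was above it in 9 cells, from 3.25 in cell 17 over a median of 6.15 to 9.81 in cell 14. Psmd9 and Psmd10 had SDs of 2.09 and 1.76, the ratio of variance to trend being 5.77 and 4.80. Neither passed limma's variance test (adjusted upper-tail p = 0.728 for each), whose upper tail called no gene at all.

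Cells fell into 2 clusters of 10 by the 500 most variable genes outside the proteasome and the gene lists. The clusters were named by the mean centred level of listed epiblast genes less that of listed primitive endoderm genes. The one with the higher value is called epiblast-like, and Fgf4 and Klf2 were among its 10 leading genes. The other is called primitive endoderm-like, with 7 markers, among them Sox17, Gata4 and Pdgfra. The epiblast is the source of the embryo proper and the primitive endoderm of the yolk sac lining. The silhouette of the split was 0.112, and no p-value is given between clusters, as the cells are not tied to embryos.

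Proteasome levels differed little between the clusters. A difference of at least 1 in size between the cluster means was found for 1 of the 47 members, Psmd7, against 12% of all genes and 20.5% of genes tested. Among genes with a mean of at least 11, where most subunits lie, the share was 1.53% of all genes and 0 of 24 members. The median size of the difference was 0.13 over the members and 0.38 over all genes tested, and at a mean of at least 11 it was 0.08 over the members and 0.12 over all genes. No member separated the clusters without overlap, which 0.255% of genes tested did. The epiblast-like mean was the higher one for 29 members, against 54% of genes tested and 49.7% of all genes.

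Psmd7 averaged 8.84 ± 0.99 in epiblast-like cells and 7.59 ± 1.90 in primitive endoderm-like cells (SD, n = 10 each), a difference of 1.25. The epiblast-like cells had a lowest value of 6.93, a median of 8.92 and a highest of 10.22, against 3.52, 7.84 and 10.03 in primitive endoderm-like cells. The clusters overlapped, and the difference was smaller than the SD of the primitive endoderm-like cells. It was 0.80 without cell 17, 1.52 without cell 8 and 0.79 with values below the floor raised to it. Another probe set of Psmd7, above the floor in 9 cells, gave 6.69 ± 2.78 in epiblast-like and 5.17 ± 2.55 in primitive endoderm-like cells.

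Psmb7 was the only member whose difference exceeded the larger SD of the clusters, which 6.12% of all genes and 8.23% of genes tested did. It averaged 11.56 ± 0.18 in epiblast-like cells and 11.18 ± 0.24 in primitive endoderm-like cells, a difference of 0.37. The epiblast-like cells ranged from 11.28 to 11.75 and the primitive endoderm-like cells from 10.84 to 11.54, so the clusters overlapped. Leaving out any 1 cell gave differences between 0.34 and 0.41. The other cutting subunits differed by 0.10 for Psmb5 and 0.06 for Psmb6.

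By role, the epiblast-like mean was higher for 7 of 8 lid genes, 5 of 6 ATPases and 4 of 4 core assembly chaperones. It was also higher for 3 of 3 activators, 3 of 3 cutting subunits and 2 of 3 immunoproteasome genes. The rest were 2 of 3 19S assembly chaperones, 2 of 4 structural beta genes and 1 of 7 alpha ring genes. The count was 0 of 3 for non-ATPase genes of the base, 0 of 2 for tissue-specific genes and 0 of 1 for the inhibitor. Over all genes tested the share was 54%, and no role was tested against it. Most of these differences were small. In the alpha ring they lay between -0.07 and 0.12, and in the ATPases between -0.11 for Psmc6 and 0.35 for Psmc3. The largest after Psmd7 were those of Psme3, at 8.97 ± 0.94 in epiblast-like and 8.21 ± 2.38 in primitive endoderm-like cells, and of Psme1, at 9.07 ± 1.29 in epiblast-like and 8.53 ± 1.57 in primitive endoderm-like cells. Both rested on single low cells, with a difference of 0.21 for Psme3 without cell 20 and of 0.11 for Psme1 without cell 15. Psmb8 averaged 8.52 ± 0.16 in epiblast-like and 8.29 ± 0.24 in primitive endoderm-like cells, a difference of 0.24, which was 0.07 with its other probe set.

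Other probe sets of the members add a little to this. Of 53 such probe sets 31 were above the floor in at least 3 cells, and 3 differed by at least 1 in size, those of Psmd7, Psmf1 (1.45) and Psme4 (-1.02). The one of Psmf1 was above the floor in 8 cells, and the probe set used had a difference of -0.26. The one of Psme4 was above it in 15 cells, and the probe set used had a difference of 0.04. For Psmc6 the probe set used differed by -0.11, while the next one, also above the floor in all cells, averaged 10.09 ± 0.52 in epiblast-like cells and 10.85 ± 0.39 in primitive endoderm-like cells. The r between these probe sets of Psmc6 was 0.20, the lowest of the 19 pairs with both probe sets above the floor in all cells.

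Genes of the G2 and M phases moved with the clusters. Of 22 tested, 19 had the higher mean in epiblast-like cells, with a median difference of 0.85, and their mean level per cell was 8.86 to 10.69 in epiblast-like and 6.71 to 10.56 in primitive endoderm-like cells. Over the cells, the mean centred level of the proteasome genes had r = 0.40 with this score and r = -0.24 with the floor (n = 20). The part of either in the differences above was not tested.

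**Figure D5:**
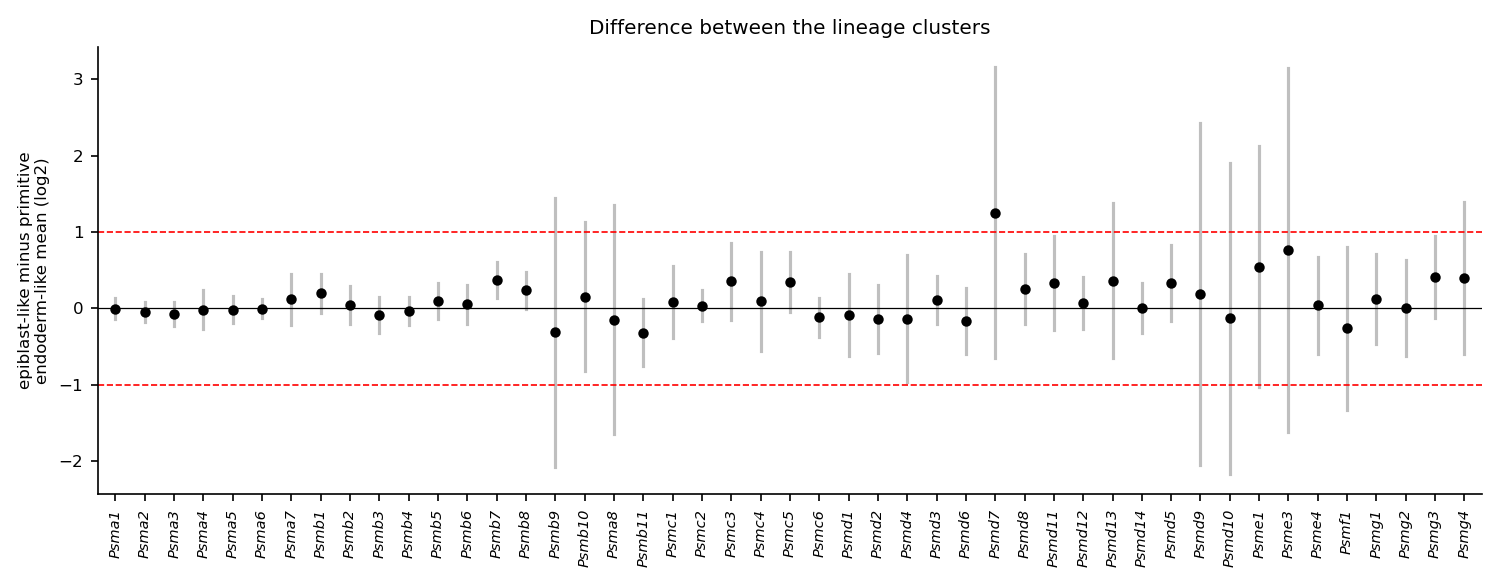
Difference of the mean level between 10 epiblast-like and 10 primitive endoderm-like cells (log2, vertical axis) for each of the 47 genes, by role in the same order as the plot of levels. Points are differences, grey bars extend by the larger SD of the clusters to each side, and dashed lines mark -1 and 1. Psmd7 alone lies beyond a line, and the bar of Psmb7 alone does not reach 0.

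Proteasome genes moved together only weakly from cell to cell. The median r over the 1081 pairs of members was 0.06 (n = 20 cells), and 60.6% of the pairs were above 0, against a median of 0.00 and 50.0% over all genes tested. It was 0.12 within the 14 core genes and 0.07 within the 17 genes for 19S subunits. All genes of a cell share its amplification, so these are descriptions of the 20 libraries. The median r was 0.09 over pairs of the 36 members above the floor in all cells, against 0.00 over all such genes. Pairs of probe sets for 1 gene, both above the floor in all cells, had a median r of 0.82 over 19 pairs of 15 members. It was 0.83 over 1641 such pairs of all genes. These pairs read the same cDNA of a cell, so they do not show what r different genes could reach.

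A few pairs lay well above the median, with the highest r for Psmc2 and Psmc5 (0.78), ATPases of the base, followed by Psmc3 and Psmc5 (0.67), Psmd3 and Psmd14 (0.66) and Psma7 and Psmb5 (0.66). The lowest was that of Psma2 and Psmg4 (-0.69). Psmb7 was the member nearest to the mean of all others, at r = 0.71. These are the extremes of 1081 values and were picked as such.

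The mean level of the 47 members was followed over single cells. The mean of the centred levels of all 47 genes had an SD of 0.15 over the cells, against 0.07 for all 10198 genes tested. The latter mean is taken over far more genes. For the members, the lowest value was in cell 20 (-0.37), the next in cell 10 (-0.29) and the highest in cell 11 (0.25). Members outside the constitutive core and the 19S subunits weighed most in cells 20 and 11. In cell 20 they averaged -0.74, against -0.04 for the core genes and -0.29 for the 19S genes. In cell 11 they averaged 0.73, against 0.10 for the core genes and -0.07 for the 19S genes. The median of the centred levels was -0.07 in cell 20 and 0.08 in cell 11. For the core genes alone the range was -0.13 to 0.12, and for the 19S genes -0.48 in cell 10 to 0.31 in cell 12. Core and 19S means had r = 0.66 over the cells. Cell 20 was the lowest cell for 5 members and was at least 1 below the median in 7. It was also among the 4 cells with the lowest G2 and M phase score. Of those cells, cell 4 had the lowest score and a mean centred level of 0.02, with -0.13 in cell 8 and -0.15 in cell 17. Cell 10 had a centred score of 0.09. A link of this score to the low levels was not tested.

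Companions of the proteasome, from a list of 33 symbols that includes older names, gave 21 measured genes, all tested. Above the floor in all cells were 12, and 0 passed limma's variance test in either tail, nor did any at an unadjusted p of 0.05. The 3 with the largest means were Sem1, a small lid subunit, at 12.37 ± 0.13, the unfoldase Vcp with a median of 11.98 and the ubiquitin shuttle Rad23b at 11.74 ± 0.40. The 3 with the smallest means were detected in fewer cells, the deglycosylase Ngly1 in 7, Zfand2a, a stress-induced partner of the 19S particle, in 15, and Ecpas, a scaffold of the 26S proteasome, in 18.

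A cluster difference of at least 1 in size was found for 5 of the 21 companions, against 20.5% of genes tested, a share near that background. Zfand2a averaged 9.42 ± 1.77 in epiblast-like and 7.28 ± 1.97 in primitive endoderm-like cells. Ecpas averaged 7.87 ± 1.51 in epiblast-like and 9.33 ± 0.81 in primitive endoderm-like cells. The other 3, named after their values were seen, were Ubqln4 (1.37) and Ubqln2 (-1.32), ubiquitin shuttles, and Nfe2l1 (1.24). With values below the floor raised to it, that of Ubqln2 was -0.96 and those of the other 4 stayed beyond 1 in size. Nfe2l1 encodes NRF1, a transcription factor known to raise proteasome genes when the proteasome is inhibited. It averaged 9.83 ± 0.50 in epiblast-like and 8.59 ± 1.10 in primitive endoderm-like cells. In the antigen-processing list the largest differences were those of Irf9 (1.74), part of the interferon-activated ISGF3 complex, and H2-D1 (1.11). With values below the floor raised to it they were 0.76 for Irf9 and 0.87 for H2-D1.

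NRF1 acts through antioxidant response elements, so promoters were searched for TGACNNNGC on both strands, from 250 bases before to 50 after each start (RefSeq, GRCm38.p6). Of the 39 members with a promoter in the table, 6 held it at any of their starts (15.4%), against 13.99% of 27025 genes, a share near that background. The windows around the matches are printed as places where these letters occur, at a rate near that of all genes. Whether NRF1 acts through any of them was not tested. The match is in capitals.
Psmb5: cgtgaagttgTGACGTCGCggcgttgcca
Psmb6: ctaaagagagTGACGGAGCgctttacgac
Psmc6: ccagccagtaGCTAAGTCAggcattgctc
Psmd12: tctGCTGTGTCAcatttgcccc
Psmd9: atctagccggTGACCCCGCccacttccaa
Psme4: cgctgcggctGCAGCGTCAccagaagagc
The windows lie at chr14:54618024-54618052 on the minus strand for Psmb5 and, on the plus strand, at chr11:70525338-70525366 for Psmb6, chr14:45329587-45329615 for Psmc6, chr11:107479278-107479299 for Psmd12, chr5:123228149-123228177 for Psmd9 and chr11:30771758-30771786 for Psme4. In Psmc6, Psmd12 and Psme4 the match is on the opposite strand. The SDs of these 6 genes ran from 0.19 for Psmb6 to 2.09 for Psmd9, so they spanned most of the range of the members.

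The CCAAT box was held by 14 of the 39 promoters (35.9%), against 41.1% of genes. Of the motifs added after the data were seen, GAAA with another GAAA after NN is the core of an interferon-stimulated response element. It was held by 5 (12.8%), those of Psmb3, Psmd4, Psmd9, Psme1 and Psmg4, against 3.99% of genes. TTCNNNGAA, the core of a STAT site, was held by 3 (7.69%), those of Psmb8, Psmd2 and Psmg1, against 9.55%. Both strands were searched for each motif, and a match is a run of letters, not a bound site.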

How the data were processed

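Cells were lysed one by one, and PCR-amplified cDNA gave biotin-labelled cRNA for an Affymetrix array, per the labels' protocols. The deposited values are probe set intensity on a linear scale, 1 to 26616. For these values no source used here names the software or normalization. Of 45101 probe sets 64 were controls, 34945 had 1 gene, 932 several and 9160 none in GEO's platform annotation. All 47 members matched RefSeq by Entrez identifier, and sequences come from RefSeq (GRCm38.p6).

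Array 2%-trimmed means ran from 182.5 to 221.2, so arrays were quantile normalised. Deposited values were 1 of the alternatives. The pseudocount of 8.48 is the 25th percentile of the arrays. For arrays, signal over the floor and the number of cells limit the precision. Pairs of arrays that shared most values numbered 0.

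The variance test used limma's squeezeVar (version 3.58.1, R 4.3.3) with a trend on mean level and an F test in each tail. It ran over the 10198 genes that 3 or more cells had above the floor, with Benjamini-Hochberg adjustment at 0.05. The test was also run on simulated data, with results not reported here. Clusters were made by Ward's method on the 500 genes with the largest ratio of variance to trend (scikit-learn 1.9.0, scipy 1.17.1). Cluster differences, correlations and motif counts are descriptions without a test.

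The members, gene lists and tests were chosen with earlier results of these data known. By rule, values over the cells are given for the catalytic, immunoproteasome, tissue-specific and activator genes, the 5 most and 5 least variable members and members with a cluster difference of at least 1. Of the lists, the 3 largest and 3 smallest means among tested genes and the 2 largest differences are named.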

Additional observations from a re-analysis of the deposited data

How the results depend on the processing

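All 12 alternatives to the normalization, pseudocount, floor, filter, choice of probe set, clusters and cells gave 287 values. Of these, 258 stayed near the main value. Near means within 1.5 times for counts, shares and ratios, within a spread for levels, r and differences, and the same call for Psmb8. For the difference of a single gene the spread was the larger SD of the clusters, so a change of sign could still count as near. Only the difference of Psmd7 was checked for a reversal, and it kept its sign. Members with a cluster difference of at least 1 numbered 2 with the deposited values, 2 with a pseudocount from the 10th percentile, 0 when a gene's probe sets were averaged and 0 with values raised to the floor, which left 6.82% of genes tested at that size. Genes above the floor in all cells were 10.2% with averaged probe sets and 8.44% with the floor at the 99th percentile. With averaged probe sets the median level of the members was 9.73, 213 genes passed the lower tail, and 26 of 45 members and 8 of 17 genes for 19S subunits had a variance below the trend, against 31.7% of genes in that fit. Without a low filter 223 genes passed the lower tail. With only genes above the floor in all cells, 39 genes and 0 members passed it, 25 of 36 members and 8 of 16 genes for 19S subunits lay below the trend, against 37.7% of genes, and the median ratio of variance to trend over all genes was 1.24. In these the set of genes that defines the trend changed. Cells 6, 10 or 16 changed cluster under 5 alternatives. The probe set with the highest mean log2 level was an alternative chosen after seeing the data, and it changed no count by over 1.5 times. No paired analysis was possible because all cells form 1 group. Signal over the floor limits what can be said of Psmb9, Psmb10, Psmd7, Psmd9, Psmd10 and Psmf1.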
